A study of Mus musculus with 3 samples.

Results

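The genes described here encode 4 families of pre-mRNA splicing factors: the serine/arginine-rich factors (SRSF), the heterogeneous nuclear ribonucleoproteins (HNRNP), the small nuclear ribonucleoprotein polypeptides (SNRP) and the subunits of splicing factor 3 (SF3). The families were picked with earlier results of these data known, and their members by symbol alone, as every gene with a probe set of its own whose symbol starts with Srsf and a digit, Hnrnp, Snrp, or Sf3a or Sf3b and a digit. This gave 47 genes of the 18193 named on the array: 10 SRSF, 19 HNRNP, 9 SNRP and 9 SF3 genes, read by 139 probe sets. A gene's value is that of the probe set with the highest mean intensity over the arrays.

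RNA abundance was measured on 3 Affymetrix arrays of memory phenotype CD4 T cells, helper T cells that bear the marks of memory cells. The cells were sorted from mouse spleen to a purity above 99%. All mice carry the strain label BALB/c and were fed for 10 weeks on either a normal diet (ND, 1 array) or a high fat diet with 60 kcal% fat (HFD, 2 arrays). The sources used here give no age, and do not say whether a sample came from 1 mouse or a pool, so the spread behind the p-values is that between these samples and may be technical. Values are linear intensities on the authors' scale, in which each array has the same trimmed mean of 500. Differences are on the log2(intensity + 17.65) scale, HFD minus ND, and a gene is called higher or lower at an adjusted p under 0.05 in limma (Benjamini-Hochberg over all genes tested).

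Genes differed from ND by a median size of 0.394 on HFD 1 and 0.452 on HFD 2 (log2), and by 0.126 between the HFD arrays. The ND group, being 1 array, was taken to vary as the HFD arrays do, and the diet cannot be told apart from other differences in how that sample was made. The median gene lay 0.15 lower in HFD, so group medians are also given relative to all genes. The class II gene H2-Ea went against the shared strain label, at 11.5 in ND against 536 and 602 in HFD, while H2-Aa, another class II gene, read 7207 in ND against 3546 and 3664. If the ND mice were of another strain, every HFD minus ND value would also hold a strain difference, and the data cannot tell apart strain and diet. No result could be given without the ND array. In bulk RNA, fewer cells of a type and less RNA per cell cannot be told apart.

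Splicing removes introns from nuclear transcripts. The spliceosome is built on small nuclear RNAs, most of which are packed into particles by a ring of Sm proteins. The U2 particle, to which the SF3A and SF3B complexes belong, recognises the branch point of the intron. SR proteins bind exons through RNA recognition motifs and recruit the machinery through their serine/arginine-rich tails, and many hnRNP proteins bind the same transcripts and favour the skipping of exons. In T cells, regulated splicing shapes surface receptors such as CD45, whose isoform changes as naive cells become memory cells.

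Transcripts of these families were mostly more abundant in HFD than in ND. Of the 45 genes that passed the filter on low values, a mean intensity above 71.4, 32 were called higher and 3 lower, against 20.5% higher and 29.2% lower over all 10341 genes tested, and 10 were not called. Among the brightest 25% of the genes tested, a background closer to the intensities of these genes, 36.4% were called higher and 32.5% lower. The members' median difference was 0.44, which is 0.60 above the median of all genes tested. The median of the brightest 25% was 0.03, itself 0.18 above that of all genes tested. Scaling the arrays to equal quantiles gave 30 higher and 8 lower, against 22.4% and 26.1% of all genes, and a relative median of 0.39 in place of 0.60. Without a variance trend in the model 20 members were called higher and 2 lower, against 16% and 21.4% of all genes. Centring the arrays on the median gave 35 higher and 2 lower. Over all genes tested, centring gave 26.7% higher and 20.3% lower.

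**Figure D1:**
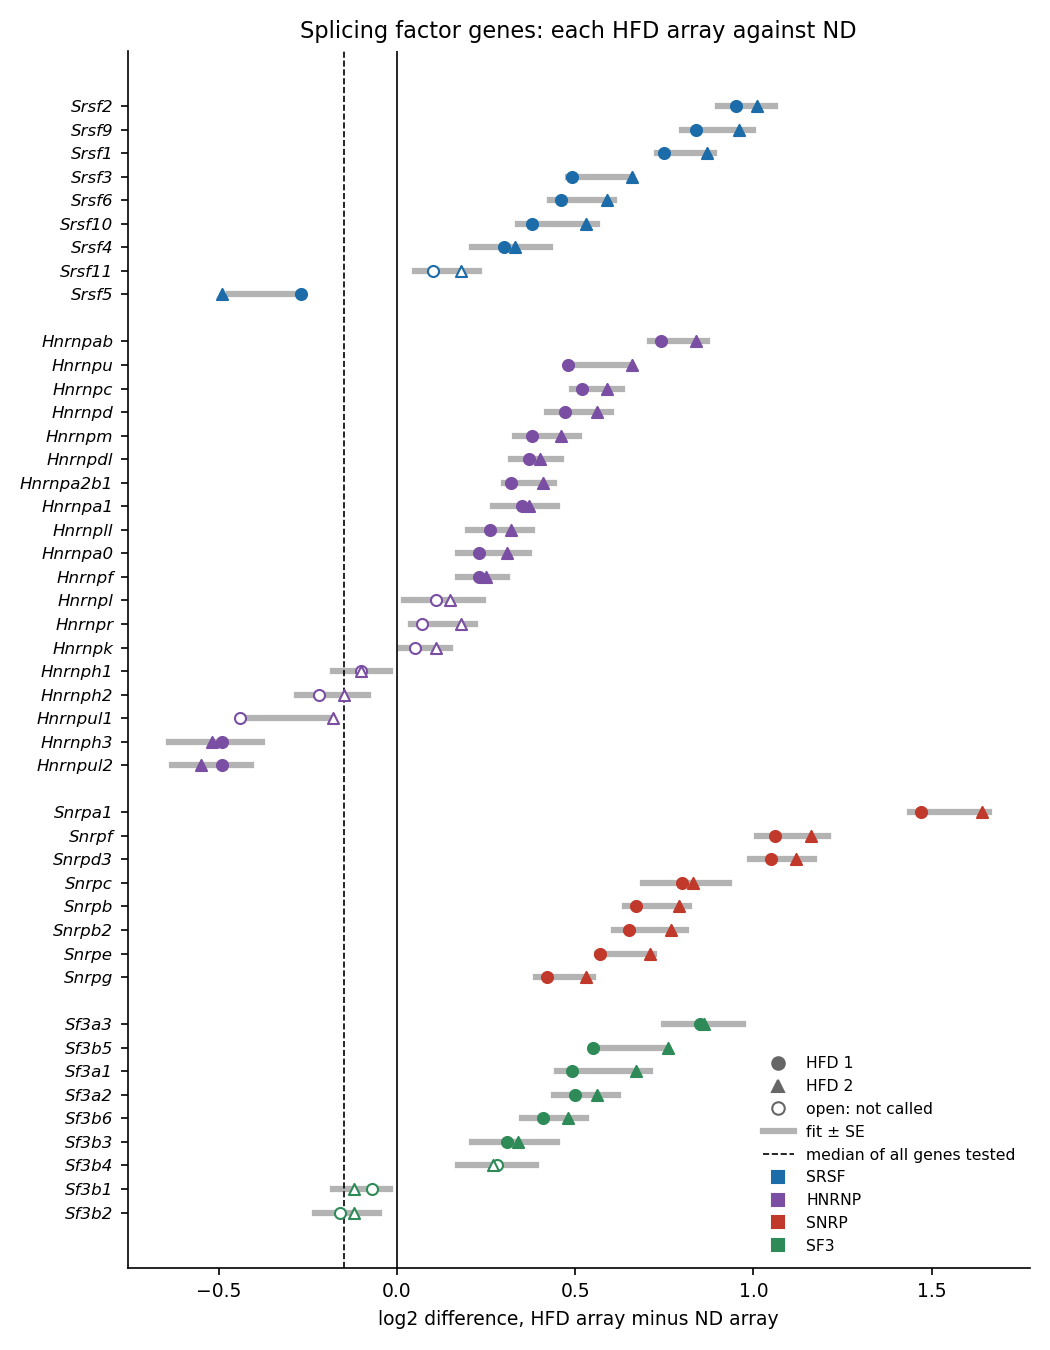
Log2 difference of each HFD array (circle, HFD 1; triangle, HFD 2) from the ND array for the 45 measured genes, sorted within family, with the fitted difference ± SE as a grey bar and open symbols for genes not called. All 8 SNRP genes lie right of 0 on both arrays, while the other families reach below 0, down to -0.52 for Hnrnpul2. The dashed line marks the median of all genes tested, -0.15.

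The measured difference went the same way on both HFD arrays in every one of the 45 genes, up in 37 and down in 8. Of all 10341 genes tested, 3700 went up and 5657 down on both arrays. Among the 2585 brightest these counts were 1285 and 1206. Both differences are taken from the same ND array, so they are not independent. HFD 2 read above HFD 1 in 40 of the 45 (88.9%), against 50.6% of all genes tested and 58.6% of the brightest 25%. The gap between the HFD arrays was small. Its median was 0.075 for the 45 genes, 0.126 for all genes tested and 0.09 for the brightest 25%. Counting only size, 3 members were at least 2-fold higher on both HFD arrays and 0 at least 2-fold lower, against 6.0% and 2.60% of all genes tested and 9.56% and 1.20% of the brightest 25%. All 3 belong to the SNRP family.

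The SNRP family encodes core proteins of the small nuclear particles. All 8 measured genes were called higher, with a median difference of 0.77 (0.92 above all genes) and a range of 0.47 to 1.55. This count stayed at 8 under quantile scaling and under centring. It was 7 with probe sets averaged, and 7 without the probe sets whose identifier marks them as shared. Snrpa1, which encodes the A' protein of the U2 particle, had the largest difference. It read 2297 in ND and 6407 and 7179 on the HFD arrays, 2.94-fold (log2 1.55 ± 0.11 SE, adjusted p = 2.15e-07), and its 3 probe sets read higher by 1.55 to 2.18. Both HFD arrays thus lay far above ND, with a gap between them that was small beside the change.

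The Sm ring proteins came next. Snrpf, which encodes Sm protein F, read 2986 in ND and 6265 and 6693 in HFD, 2.16-fold (log2 1.11 ± 0.10, adjusted p = 2.37e-06) on its single probe set. Snrpd3, which encodes another ring subunit, read 3878 in ND and 8049 and 8421 in HFD, 2.12-fold on its brightest probe set (log2 1.08 ± 0.09, adjusted p = 1.66e-06). Its other probe sets were dim and did not follow. One read 298 in ND and 225 and 187 in HFD, the other 75.5 in ND and 67.4 and 82.7 in HFD, and averaging all 3 left a difference of 0.19 that was not called (adjusted p = 0.279).

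The other ring genes with a probe set of their own had smaller differences. Snrpb, whose products are the B proteins of the ring, read 6949 in ND and 11057 and 12025 in HFD (1.66-fold, adjusted p = 3.06e-05). Snrpe read 16956 in ND and 25205 and 27745 in HFD (1.56-fold, adjusted p = 2.47e-05). Its only probe set is marked as shared with other transcripts, so Snrpe drops out when such probe sets are left out. Snrpg read 14998 in ND and 20043 and 21684 in HFD (1.39-fold, adjusted p = 2.84e-04, and 0.0544 without a variance trend). For each of these ring genes the lower HFD array still lay above ND. Snrpc encodes a protein of the U1 particle, which marks the start of the intron, and read 1520 in ND and 2661 and 2710 in HFD (1.76-fold, adjusted p = 1.11e-04). Snrpb2, the U2 protein that partners the product of Snrpa1, read 3485 in ND and 5497 and 5966 in HFD (1.64-fold, adjusted p = 1.14e-04). The ninth gene, Snrpn, a neuronal Sm protein gene, was under the filter on its own probe set, at 5.84, 4.93 and 4.31. Probe sets that it shares with Snurf are described near the end.

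**Figure D2:**
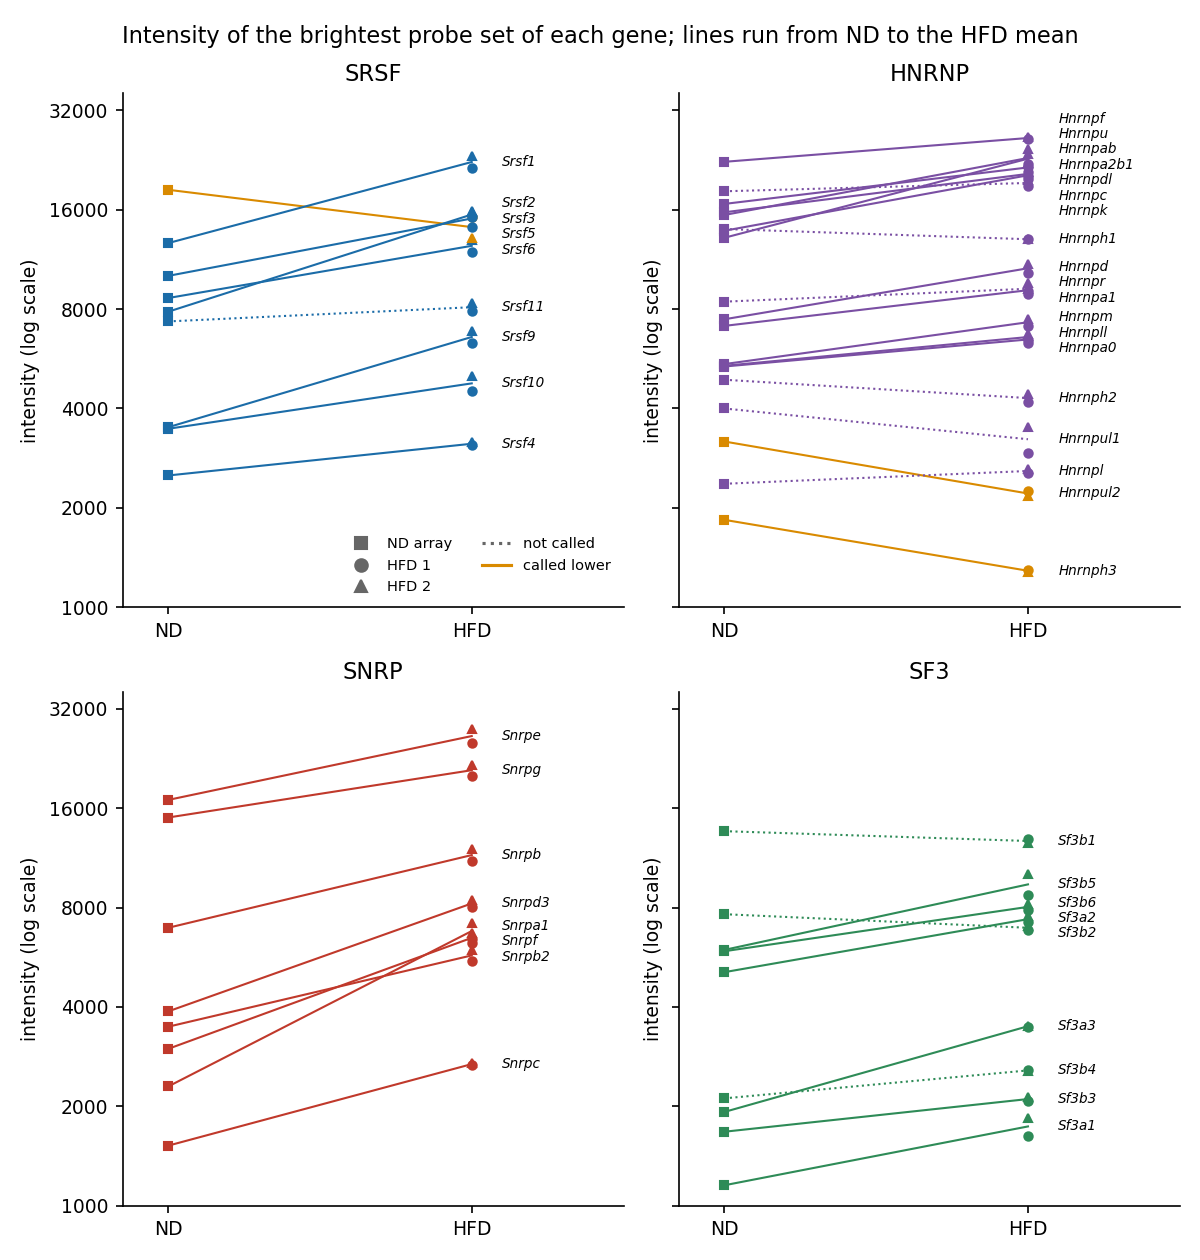
Intensity of each gene's brightest probe set (log axis) in ND (square) and on the HFD arrays (circle, HFD 1; triangle, HFD 2), by family, with a line from ND to the HFD mean, dotted where the gene was not called and orange where it was called lower. The lines of all 8 SNRP genes rise, and that of Snrpa1 runs from 2297 to 6793; orange lines are those of Srsf5, Hnrnph3 and Hnrnpul2.

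To show the genomic setting of these genes, the 250 bases before the annotated start are given for the SNRP genes past 2-fold and for Sf3a3, the SF3 gene with the largest rise and an example of a promoter with CCGGAAG; Srsf2 and Srsf9, described further on, rose more than Sf3a3 (RefSeq, GRCm38.p6, printed 5′ to 3′ on the gene's strand). Capitals mark matches, on either strand, to CCGGAAG, a sequence bound by ETS factors, and to CCAAT, bound by NF-Y.
Snrpa1, chr7:66060086-66060335, plus strand: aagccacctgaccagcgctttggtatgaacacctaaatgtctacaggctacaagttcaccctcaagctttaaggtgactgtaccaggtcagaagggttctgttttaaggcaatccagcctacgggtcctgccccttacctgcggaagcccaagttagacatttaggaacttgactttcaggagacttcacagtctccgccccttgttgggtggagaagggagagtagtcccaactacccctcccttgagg
Snrpd3, chr10:75517792-75518041, plus strand: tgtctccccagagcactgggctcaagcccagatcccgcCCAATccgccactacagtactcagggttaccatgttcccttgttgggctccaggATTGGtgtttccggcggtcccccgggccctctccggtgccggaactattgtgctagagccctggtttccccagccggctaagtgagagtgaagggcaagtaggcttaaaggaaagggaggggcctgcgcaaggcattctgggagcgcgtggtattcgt
Snrpf, chr10:93589659-93589908, minus strand: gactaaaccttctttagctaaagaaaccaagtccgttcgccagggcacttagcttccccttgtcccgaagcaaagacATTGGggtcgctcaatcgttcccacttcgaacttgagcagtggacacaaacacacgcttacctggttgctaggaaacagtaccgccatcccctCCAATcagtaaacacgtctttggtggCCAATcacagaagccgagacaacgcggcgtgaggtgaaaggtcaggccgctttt
Sf3a3, chr4:124714611-124714860, plus strand: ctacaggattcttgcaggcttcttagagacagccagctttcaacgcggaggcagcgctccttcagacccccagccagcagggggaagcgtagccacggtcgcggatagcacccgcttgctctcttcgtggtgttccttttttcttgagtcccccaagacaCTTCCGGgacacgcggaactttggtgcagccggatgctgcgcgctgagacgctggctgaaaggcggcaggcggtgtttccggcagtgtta

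The promoter table held 42 of the 47 genes. CCGGAAG, on either strand, was in the 250 upstream bases of 14 of them (33.3%), against 17.2% of the 8441 tested genes in the table and 7.8% of all 27025 genes in it. It was present in 6 of 7 SF3 genes, 3 of 8 SNRP, 3 of 10 SRSF and 2 of 17 HNRNP genes. CCAAT was in 21 of 42 (50%), against 40.7% of the tested genes, and in 12 of 17 HNRNP, 4 of 8 SNRP, 3 of 10 SRSF and 2 of 7 SF3 genes. The palindrome CACGTG, the E-box bound by MYC, was in 2 of 42 (4.8%), Hnrnpd and Hnrnpf, against 10.2% of the tested genes, and the CGCG element bound by BANP was in 0 of 42, against 1.0%. Of the measured genes with CCGGAAG 11 of 14 were called higher, and of those without it 18 of 26; for CCAAT the counts were 13 of 20 with it and 16 of 20 without it. A match is only a description of these letters.

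The SF3 genes encode the subunits of the SF3A and SF3B complexes. Of 9, 6 were called higher and 0 lower, with a median of 0.44 (7 higher and 2 lower under quantile scaling). All 3 SF3A genes, whose products join the U2 particle to the branch region, rose on their brightest probe set. Sf3a3 read 1923 in ND and 3487 and 3507 in HFD, 1.81-fold (log2 0.86 ± 0.11, adjusted p = 4.74e-05), and its second probe set read higher by 0.92. The HFD values nearly coincided.

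Sf3a2 read 5099 in ND and 7215 and 7548 in HFD (1.45-fold, adjusted p = 5.09e-04), but its probe set can be shared with other transcripts, and the unshared one read 122, 126 and 132 (log2 0.07, adjusted p = 0.862). Sf3a1 read 1153 in ND and 1629 and 1848 in HFD (1.5-fold, adjusted p = 0.00298). Its other probe sets past the filter differed by -0.24 and -0.29, and the average of all 3 was 0.02 (adjusted p = 0.933).

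Of the 6 SF3B genes, 3 rose and 3 did not pass the test. Sf3b5 read 5956 in ND and 8717 and 10096 in HFD (1.57-fold, adjusted p = 2.08e-04), and Sf3b6, which contacts the branch-point adenosine, 5901 in ND and 7863 and 8216 in HFD (1.36-fold, adjusted p = 0.00149; 0.0569 without a variance trend). Sf3b3 rose 1.25-fold from 1675 to 2078 and 2130 (adjusted p = 0.0383; 0.0664 with no filter). Sf3b1, the scaffold that holds the branch helix and a frequent target of mutation in leukaemia, read 13635 in ND and 12953 and 12511 in HFD (log2 -0.10 ± 0.08, adjusted p = 0.320). Sf3b2 read 7640 in ND and 6848 and 7050 in HFD (adjusted p = 0.231). Under quantile scaling both were called lower, at -0.32 and -0.29. Sf3b4 read 2114 in ND and 2579 and 2559 in HFD (adjusted p = 0.0596), and passed the threshold with quantile scaling (adjusted p = 0.0499) and with centring (adjusted p = 0.00408).

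Among the SRSF genes, 7 of the 9 measured were called higher and 1 lower, with a median of 0.52 (8 higher and 0 lower with arrays centred). Srsf2, an exon-binding activator of splicing that stays in the nucleus, read 7855 in ND and 15170 and 15787 in HFD, 1.97-fold (log2 0.98 ± 0.08, adjusted p = 1.03e-06). Of its 4 probe sets 3 read higher by 0.88 to 1.01. The fourth, dim at 138 in ND and 138 and 169 in HFD, differed by 0.13 (adjusted p = 0.707) and is the only one whose identifier does not mark it as shared with other transcripts. Srsf9 read 3509 in ND and 6315 and 6856 in HFD (1.87-fold, adjusted p = 1.47e-05) on a single probe set. Srsf1, the founding SR protein, read 12678 in ND and 21392 and 23258 in HFD (1.76-fold, adjusted p = 3.77e-06), and all 6 of its probe sets past the filter read higher, by 0.57 to 1.08. For these genes the HFD arrays lay close together and well above ND.

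Smaller rises followed. Srsf3, the smallest SR protein and an adaptor for RNA export, read 10086 in ND and 14197 and 15912 in HFD (1.49-fold, adjusted p = 1.79e-04). Of its 6 probe sets 5 read higher, by 0.48 to 0.67, while one read 1372 in ND and 899 and 715 in HFD, a difference of -0.76. Srsf6 read 8642 in ND and 11905 and 12973 in HFD on the brightest probe set (1.44-fold, adjusted p = 3.40e-04), whereas its 3 other probe sets differed by -0.31 to -0.08, and the average of all 4 was -0.0021 (adjusted p = 0.987). The direction of Srsf6 therefore depended on the probe set. Srsf10, which represses splicing when dephosphorylated, read 3471 in ND and 4513 and 5017 in HFD (1.37-fold, adjusted p = 0.0039; 0.0667 without a variance trend), and its other probe sets read higher by 0.59 to 1.07. Srsf4 read 2506 in ND and 3098 and 3157 in HFD (1.25-fold, adjusted p = 0.0300; 0.0596 with no filter).

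Srsf5 went the other way. It read 18390 in ND and 15254 and 13096 in HFD, 1.30-fold lower (log2 -0.38 ± 0.09, adjusted p = 0.00445) on its single probe set. Both HFD arrays lay below ND, with a wider gap between them than for other SRSF genes. The call ended with arrays centred (-0.23, adjusted p = 0.103), with no filter (adjusted p = 0.0907) and when the variance model had no trend (adjusted p = 0.119). Srsf11 read 7341 in ND and 7894 and 8319 in HFD (adjusted p = 0.210; 0.0345 with arrays centred). Srsf12 was under the filter at 25.4, 11.7 and 23.6.

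The HNRNP family is the largest, and 11 of its 19 genes were called higher, 2 lower and 6 not, with a median of 0.27 (8 higher and 5 lower under quantile scaling). Under quantile scaling 22.4% of all genes tested were higher and 26.1% lower. Without a variance trend 4 HNRNP genes were higher and 2 lower, against 16% and 21.4% of all genes tested. Hnrnpab, a relative of Hnrnpd, read 13159 in ND and 22053 and 23635 in HFD, 1.73-fold (log2 0.79 ± 0.08, adjusted p = 3.67e-06), and all 7 of its probe sets read higher, by 0.21 to 1.29. Hnrnpu, a nuclear scaffold protein that binds RNA and chromatin, read 15427 in ND and 21495 and 24419 in HFD (1.48-fold, adjusted p = 1.31e-04), with 1 of its 5 probe sets at -0.03. Hnrnpc, which binds uridine tracts and sorts transcripts by length for export, read 13819 in ND and 19858 and 20844 in HFD (1.47-fold, adjusted p = 6.40e-05). Its second probe set read higher by 0.88.

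Hnrnpd, also known as AUF1, which controls the decay of AU-rich mRNAs, read 7452 in ND and 10294 and 10979 in HFD (1.43-fold, adjusted p = 4.17e-04). Its other probe set read 415 in ND and 361 and 364 in HFD, and the average was not called (0.16, adjusted p = 0.268). Hnrnpdl, a close relative, read 15716 in ND and 20289 and 20803 in HFD (1.31-fold, adjusted p = 7.80e-04, and 0.0755 without a variance trend). Its 7 probe sets read higher by 0.09 to 1.05. Hnrnpm read 5451 in ND and 7120 and 7480 in HFD (1.34-fold, adjusted p = 0.00255, and 0.0657 without a variance trend). For each of these genes both HFD arrays lay above ND, and closer to each other than to ND.

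Transcripts of Hnrnpa1 and Hnrnpa2b1, which encode abundant splicing repressors, had smaller differences than those of Hnrnpab on the single-gene probe sets. Hnrnpa1 read 7116 in ND and 9045 and 9208 in HFD (1.28-fold, adjusted p = 0.00448, and 0.0879 without a variance trend). Hnrnpa2b1 read 16663 in ND and 20857 and 22126 in HFD (1.29-fold, adjusted p = 0.00131). The Hnrnpa2b1 call ended without a variance trend (adjusted p = 0.0901), with no filter (adjusted p = 0.0535) and with its 4 probe sets averaged (adjusted p = 0.171). Of these probe sets 1 differed by -0.19. Hnrnpa0 rose 1.21-fold and Hnrnpf, which binds G-rich RNA, 1.18-fold, but both calls ended under quantile scaling (adjusted p = 0.146 and 0.0678). Hnrnpll, the regulator of CD45 exon skipping in memory T cells, read 5386 in ND and 6433 and 6735 in HFD (1.22-fold, adjusted p = 0.0229). That call ended in 6 alternatives, among them quantile scaling (adjusted p = 0.124), no filter (adjusted p = 0.0771) and the unshared probe set (log2 0.03, adjusted p = 0.831).

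Hnrnph3 and Hnrnpul2 were lower in HFD. Hnrnph3, of the H/F branch of the family, read 1839 in ND and 1300 and 1277 in HFD, 1.42-fold lower (log2 -0.51 ± 0.13, adjusted p = 0.00524), on its only probe set. Hnrnpul2, a relative of Hnrnpu, read 3176 in ND and 2252 and 2168 in HFD, 1.43-fold lower (log2 -0.52 ± 0.11, adjusted p = 0.00237), and its second probe set differed by -0.27. The HFD values of each nearly coincided, below ND.

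The 6 genes not called were Hnrnpk, Hnrnpl, Hnrnpr, Hnrnph1, Hnrnph2 and Hnrnpul1. Hnrnpk, a binder of C-rich RNA and DNA, was nearest to no difference, at 18199 in ND and 18875 and 19696 in HFD (log2 0.08 ± 0.07, adjusted p = 0.366). Hnrnpl and Hnrnpr each differed by 0.13, and Hnrnpr passed the threshold with arrays centred (adjusted p = 0.0427). Hnrnph1 and Hnrnph2, the other H-type genes, read -0.10 and -0.18. Hnrnpul1 read 3999 in ND and 2937 and 3517 in HFD (log2 -0.31 ± 0.12, adjusted p = 0.0505). Under quantile scaling Hnrnph1, Hnrnph2 and Hnrnpul1 were called lower (adjusted p = 0.00191, 0.015 and 0.0106).

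Probe sets of 1 gene did not always move together. Of the 139 probe sets, 128 passed the filter, and of these 96 read higher than ND in both HFD arrays, 25 lower and 7 mixed. Of the 33 genes with at least 2 such probe sets, 13 held differences of both signs: 6 HNRNP, 3 SRSF, 3 SF3 and 1 SNRP gene. The widest range was that of Snrpd3, from -0.50 to 1.08, followed by Srsf3, from -0.76 to 0.67, and Hnrnpr, from -0.45 to 0.82. In Srsf6, Sf3a1, Snrpd3, Hnrnpd and Sf3b4 the brightest probe set was the only one that read higher. Genes with 4 or more probe sets past the filter, all of them higher, were Srsf1, Srsf2, Srsf10, Hnrnpab, Hnrnpdl and Hnrnpf. Which transcript forms the probe sets read was not analysed here.

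**Figure D3:**
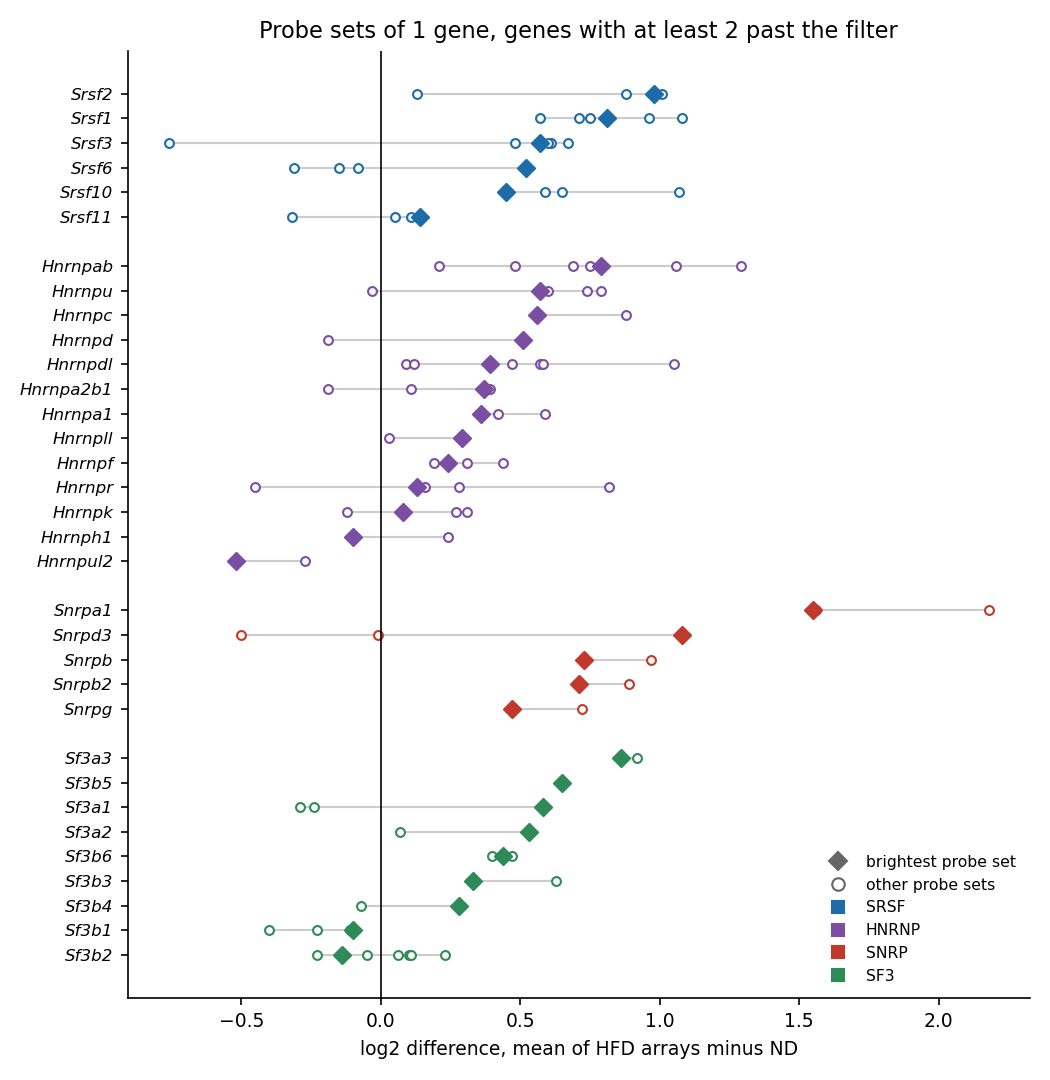
Log2 difference (mean of the HFD arrays minus ND) of every probe set past the filter for the 33 genes with at least 2; the filled diamond is the brightest probe set, open circles the others. In 13 genes the probe sets lie on both sides of 0, as in Srsf6 (-0.31 to 0.52) and Snrpd3 (-0.50 to 1.08), while the 6 of Srsf1 all lie between 0.57 and 1.08.

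Other genes of the splicing pathway, in 9 lists, were also more often higher than lower. Of 164 measured, each counted once, 73 were called higher and 16 lower, with a median of 0.25, which is 0.40 above all genes. Over all genes tested 20.5% were higher and 29.2% lower, and among the 2585 brightest 36.4% and 32.5%. With arrays centred the lists held 96 higher and 5 lower, against 26.7% and 20.3% of all genes tested. In the U1 and minor spliceosome, U2AF and catalytic step lists the share higher was near that of the 2585 brightest. Their share lower was under both backgrounds. Lists of core particle and assembly proteins held few or no lower genes. Of 7 LSm genes, whose ring packs the U6 RNA, 6 were higher and 0 lower (median 0.74), with Lsm7 at 920 in ND and 1960 and 2115 in HFD (2.19-fold, adjusted p = 1.64e-05), Lsm2 up 2.57-fold from a dim 177 and Lsm6 up 1.75-fold. Of 15 genes that assemble Sm rings, 9 were higher and 0 lower (median 0.48). Wdr77, a subunit of the methylosome that methylates Sm proteins, read 1583 in ND and 4261 and 4898 in HFD (2.87-fold, adjusted p = 6.39e-07), and Prmt7 rose 2.26-fold on one probe set with the other at 0.01. Gemin5, which recognises small nuclear RNAs, rose 2.81-fold from 133 (adjusted p = 5.23e-05), but its probe set that is brightest on ND differed by 0.30 (adjusted p = 0.222).

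Of 12 exon junction complex and export genes, 10 were higher and 0 lower (median 0.68). Rbm8a, a core protein of the complex, read 3760 in ND and 7573 and 8574 in HFD (2.14-fold, adjusted p = 3.20e-06), and Alyref and Ncbp1 rose 1.78 and 1.76-fold, the second probe set of Alyref reading -0.06. Of 19 genes of the U4/U6.U5 particle, 11 were higher and 0 lower (median 0.33), led by Prpf31 at 858 in ND and 2014 and 2357 in HFD (2.51-fold, adjusted p = 7.05e-06) and by Eftud2, up 1.76-fold. Prpf38a rose 1.73-fold, with another probe set at -0.27 and no call with probe sets averaged (adjusted p = 0.195). Of 12 U1 and minor spliceosome genes, 5 were higher and 0 lower (median 0.25), Zcrb1 by 1.46-fold, Luc7l3 by 1.5-fold and Luc7l by 1.49-fold, with calls for Luc7l3 and Luc7l ending when probe sets were averaged (adjusted p = 0.0759 and 0.0538).

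Of 16 genes around U2AF, 6 were higher and 1 lower (median 0.14). U2af1, which reads the end of the intron, read 3018 in ND and 7035 and 6900 in HFD (2.30-fold, adjusted p = 8.44e-07). Rbm17 and U2surp rose 1.75 and 1.52-fold, and Rbm5 fell 1.39-fold, the calls for U2surp and Rbm5 ending with probe sets averaged (adjusted p = 0.0832 and 0.122). Of 30 genes of the catalytic steps, 12 were higher and 3 lower (median 0.25). Prpf19, the ubiquitin ligase that activates the spliceosome, rose 1.76-fold (7311 to 12570 and 13201, adjusted p = 7.45e-06), Cwc27 1.80-fold and Isy1 1.66-fold, the last with a probe set at -0.27 and no call with probe sets averaged (adjusted p = 0.183). Slu7, Syf2 and Cwc25 fell 1.36, 1.28 and 1.37-fold, and all 3 calls ended with arrays centred (adjusted p = 0.079, 0.21 and 0.192).

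The regulators were mixed. Of 12 kinases, phosphatases and carriers of SR proteins, 1 was higher and 4 lower (median -0.11, which is 0.04 above all genes). The share lower was near the 29.2% of all genes tested and the 32.5% of the 2585 brightest. The count of lower genes therefore shows no clear excess over the background. The share higher was under the 20.5% and 36.4% of these backgrounds. Ppm1g, a phosphatase of splicing proteins, rose 1.53-fold, while Dyrk1a fell 1.56-fold, from 1656 to 1026 and 1081 (adjusted p = 0.00146), Clk4 fell 1.39-fold, and Clk2 1.30-fold, a call that ended with arrays centred (adjusted p = 0.167). Of 42 other SR-rich and alternative splicing regulators, 13 were higher and 8 lower (median 0.14). Their share higher lay above that of all genes tested but under that of the 2585 brightest, and their share lower under both. Tardbp, which encodes TDP-43, rose 2.49-fold, from 2646 to 5981 and 7312 (adjusted p = 2.75e-06), Fubp1 2.12-fold and Sfpq 1.78-fold, the last with a probe set at -0.44. Mbnl2 fell 1.82-fold, from 1794 to 1016 and 945 (adjusted p = 2.03e-04), Rbm39 1.36-fold, and Rbmx 1.39-fold, a call that ended with arrays centred (adjusted p = 0.0868).

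**Figure D4:**
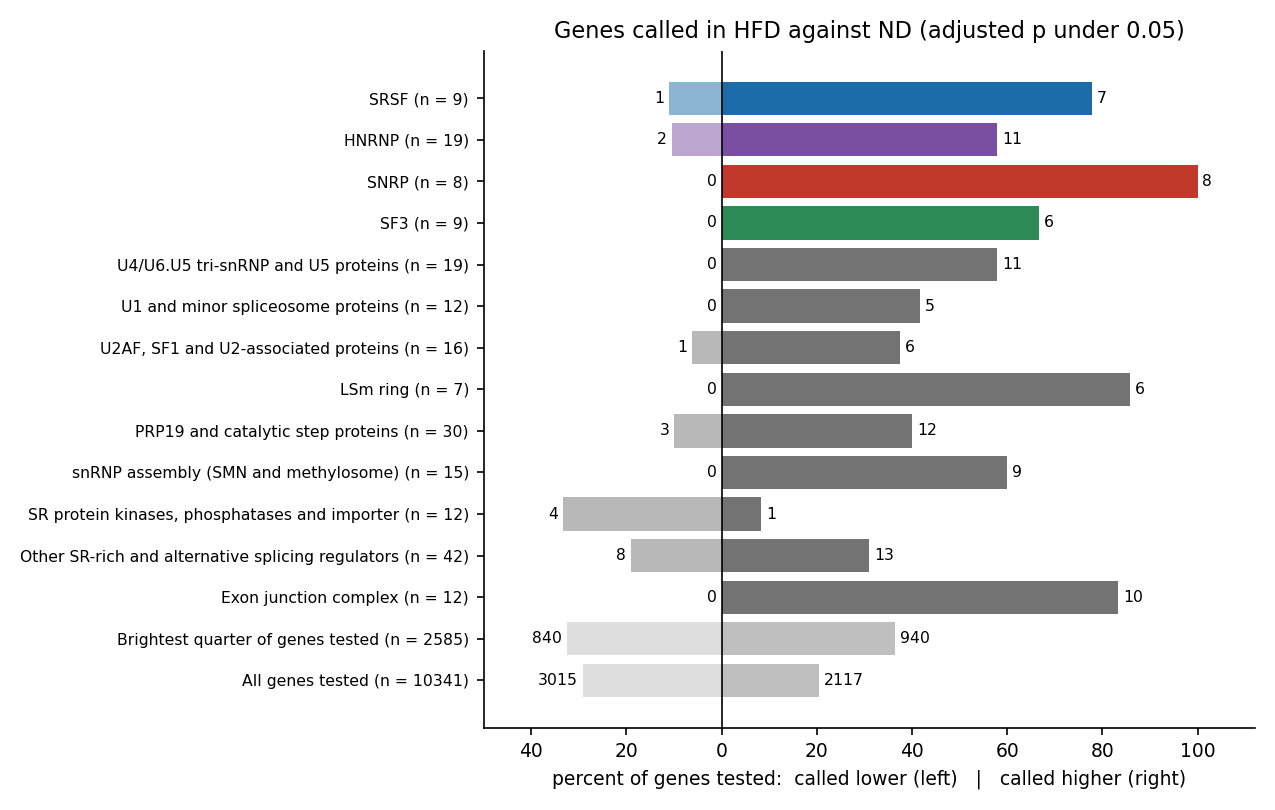
Percent of the genes tested that were called higher (right) or lower (left) in HFD, for the 4 families (coloured), 9 lists of other splicing genes (dark grey) and the background (light grey), with the count of genes at each bar. The SNRP bar covers 8 of 8 genes. The list of SR protein kinases has 1 of 12 genes higher and 4 lower, a share lower near that of all genes tested. Over all genes tested 20.5% were higher and 29.2% lower.

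Markers of other cell types moved with the contrast. All 9 T cell markers measured passed the filter, from Cd3d at 22919 in ND and 19833 and 19515 in HFD to Cd4, the marker of the sorted cells and the dimmest of them, at 911 in ND and 609 and 377 in HFD. Of the 9, 7 fell and 0 rose, with a summed intensity of 100874 in ND and 83174 and 79336 in HFD. The summed B cell markers were 1361 in ND and 2559 and 2621 in HFD, a rise carried by Ms4a1 (56.8 to 1612 and 1837), while Cd79b and Cd22 read lower in HFD. Cd79a (5.74 in ND, 51.2 and 49.4 in HFD), Blk and Pax5 did not pass the filter. Of 8 macrophage and 6 dendritic cell markers 4 each fell and 0 rose, with sums of 1825 and 1915 in ND and of 626 to 885 in HFD. Of 7 neutrophil markers 2 rose and 4 were under the filter level on every array, with sums of 189 in ND and 611 and 692 in HFD. Among the dimmer lists, NK and CD8 T cell markers summed to 497 in ND and 662 and 799 in HFD (1 of 4 rose), and the 3 erythroid ones to 33 to 69, none passing the filter. The 9 cell cycle genes measured summed to 24654 in ND and 45159 and 47649 in HFD, 6 called higher and 1 lower. Pcna read 13307 in ND and 20505 and 21736 in HFD, and Mcm5 2777 in ND and 9125 and 10334 in HFD. Mki67 went the other way, at 2092 in ND and 1610 and 1440 in HFD, and Ccna2 read 588 in ND and 620 and 578 in HFD. The part of these shifts in the results was not tested. As a sign of RNA quality, the 3′ to 5′ ratio of the Gapdh controls was 0.723 in ND and 0.681 and 0.706 in HFD, and that of the Actb controls 1.29 in ND and 1.27 and 1.34 in HFD.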

How the data were processed

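The deposited values are linear intensities per probe set, 1 array a sample, made with GCOS, the array maker's software, per the submitters' processing notes. Its version, algorithm and background correction were not given in the sources used here. The values show scaling of each array to a trimmed mean of 500 (2% trimmed at each end). Precision is limited by the number of arrays.

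Of 45101 probe sets, 64 were controls, 34945 had 1 gene symbol, 932 several and 9160 none. All 139 member probe sets matched RefSeq by Entrez identifier with the same symbol. The rule for members used single-symbol probe sets only. Values were put on the log2(intensity + 17.65) scale, with the 25th percentile as pseudocount. The filter on low values kept 10341 genes whose mean intensity exceeded 71.4, the median probe set. A filter on that mean, 2 of its 3 arrays being HFD, admits dim genes high in HFD more readily. The diets were compared with limma 3.58.1 (lmFit, eBayes with trend, two-sided) in R 4.3.3, with Benjamini-Hochberg adjustment over all genes and 1 residual degree of freedom, moderated with 11.69 prior ones.

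Named were, per family, up to 8 called higher and 5 lower with the largest smaller difference over both HFD arrays and the gene nearest to 0, and up to 3 each way per pathway list; other members are named for completeness. Members, lists and markers were chosen with earlier results of these data known. For HFD against ND the fit was tested on simulated data with 10341 genes, of which 200 were changed. It recovered 77% of changes of 1 and 91% of changes of 2 on the log2 scale, and called 15 unchanged genes. All 3 simulated arrays took their spread from the fitted model. The simulation therefore cannot show whether the ND array varies as assumed. Alternatives covered scaling, offset, filter, merging of probe sets, variance model, threshold and leaving out each HFD array. Further alternatives were added after seeing the data: leaving out probe sets whose identifier marks them as shared (_s_at, _x_at), and the brightest 25% of genes as background, and so were the motifs CCGGAAG and CCAAT. Python 3.11.15, pandas 2.3.3, numpy 2.4.6 and matplotlib 3.10.9 were used.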

Additional observations from a re-analysis of the deposited data

Results flagged for a closer look

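Besides the probe sets of a single gene, 16 probe sets carry a family symbol together with that of another gene and entered no comparison. On 4 of them both HFD arrays read at least 2-fold above the ND array, and on a Snrpn probe set both read at least 2-fold below it. The probe set shared by Snrpd1, a Sm ring gene, and Gm14277 read 1119 in ND and 3981 and 4704 in HFD (log2 1.93). The one shared by Snrpd2 and Gm5848 read 5404 in ND and 12741 and 14452 in HFD (log2 1.33). The one naming Snrpa, which encodes the U1 particle's A protein, with Gm21559 and Gm5161 read 811 in ND and 1765 and 1863 in HFD (log2 1.14). A Hnrnpa1 probe set shared with Hnrnpa1l2-ps2, Gm10052 and Gm5643 read 4431 in ND and 10185 and 12102 in HFD (log2 1.32), more than the single-gene probe set described above (0.36), while 2 further shared ones differed by 0.78 and 0.73. The Snrpn probe set that fell is shared with Snurf and read 280 in ND and 110 and 102 in HFD (log2 -1.26). Another shared by these genes read 839 in ND and 1026 and 888 in HFD (log2 0.18), and the rest of them were dim. No test was made on any of these 16 probe sets.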

How the results depend on the processing

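No paired analysis was possible because the ND group has 1 array. Of the 45 members tested, 26 lost no call and reversed no called difference in any alternative with a test. Among the 32 called higher and 3 called lower, 18 lost the call in at least 1 alternative and 1 reversed. The 10 members not called in the main fit had no call to lose and are among the 26. Of these uncalled members, 8 passed the threshold in at least 1 alternative. Srsf6 turned to -0.0021 with probe sets averaged, and the cause was not tested. Without a variance trend, members called higher were 20, HNRNP genes called higher 4, SRSF genes called lower 0 and related genes called lower 3. In that setting 16% of all genes tested were higher and 21.4% lower. Under quantile scaling 26.1% of all genes tested were called lower. Members called lower were then 8, HNRNP genes 5 and SF3 genes 2, and the median relative to all genes was 0.39. That median was 0.52 unfiltered, 0.54 when only values above the 75th percentile entered, 0.47 with probe sets averaged, 0.53 without shared probe sets, and 0.52 to 0.63 without HFD 2 or HFD 1. Unfiltered, HNRNP genes called higher were 7 and SRSF genes called lower 0, against 9.14% higher and 10.6% lower over all genes. With arrays centred, SRSF genes called lower were 0 and related genes called lower 5, and at an adjusted p under 0.01 these were 8. Leaving out an HFD array leaves no error term, so only values could be had. Dim probe sets cannot be told from background here.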
